A study of Homo sapiens with 18 samples.

Results

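FCHSD2, ZDHHC3, LNPEP, MIB1 and EZH2 are 5 human genes whose messenger RNA was lower with both ETV6 vectors than with the empty vector in ETV6 knockout cells. They were chosen by those measured values, and because most of them did not respond to the vectors in unedited cells. The choice was made among the 20833 genes of the deposited count table, of which 12262 held enough reads to be tested. A gene was taken as lower where the adjusted p was under 0.05 and the fold change negative in both comparisons; 6 genes met this, 0.0489% of those tested, and the remaining one is CD79A. The count depended on the processing: it was 2 to 7 without 1 library, with 2 to 5 of the 5 genes among them, 5 with 4 of them when no filter on low counts was used, 38 with DESeq2 and 57 with a block on the replicate number. Replicate numbers did not pair all groups, as described below, which limits the last of these counts. All 5 genes passed the filter on low counts. Their levels with each vector against the empty vector are therefore a description of what chose them, and carry no test here.

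The cells were MEG-01 (Meg01 in the labels), a human leukaemia line of the megakaryocyte lineage. Knockout cells carry the genotype label ETV6-KO, and unedited cells carry the label WT. Each genotype was transduced with lenti_ETV6-WT, lenti_ETV6-R369W or lenti_EV, called ETV6, R369W and EV here, and RNA was taken on day 3 after transduction. In R369W an arginine of ETV6 is replaced by tryptophan. The 6 groups are knockout ETV6, knockout R369W, knockout EV, unedited ETV6, unedited R369W and unedited EV, with 3 libraries each, which the submitters describe as biological replicates. Every group, EV included, received a lentivirus. The way the knockout was made, its clone status and the promoter of the vectors were not given in the sources used here.

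ETV6 represses transcription and belongs to the ETS family, whose proteins bind DNA at sites built around the bases GGAA, and R369W lies in the domain that binds DNA. ETV6 is needed for normal megakaryocyte maturation and platelet formation, and inherited variants in that domain are known from families with low platelet counts and a risk of leukaemia. The 5 genes act in different places. FCHSD2, ZDHHC3 and LNPEP belong to membrane traffic and protein sorting, MIB1 to the sending side of Notch signalling, and EZH2 to chromatin.

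The 250 bases before each gene's RefSeq start (GRCh38.p14) are shown (for EZH2 and LNPEP, which have a second RefSeq start, those before the start nearest the GENCODE one) because ETS proteins bind GGAA, so that its presence before each gene can be read directly. Capitals mark GGAA and the longer CCGGAA, which contains it, on either strand, so that on the opposite strand they read TTCC and TTCCGG. The windows are chr11:73142319-73142568 (minus strand) for FCHSD2, chr3:44976175-44976424 (minus strand) for ZDHHC3, chr5:96935830-96936079 (plus strand) for LNPEP, chr18:21740542-21740791 (plus strand) for MIB1 and chr7:148884292-148884541 (minus strand) for EZH2.
FCHSD2: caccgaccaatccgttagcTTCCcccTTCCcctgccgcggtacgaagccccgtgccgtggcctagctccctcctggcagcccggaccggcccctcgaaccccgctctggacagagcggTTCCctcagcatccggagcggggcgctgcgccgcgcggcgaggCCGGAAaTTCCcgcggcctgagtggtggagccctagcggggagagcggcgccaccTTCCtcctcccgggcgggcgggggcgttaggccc
ZDHHC3: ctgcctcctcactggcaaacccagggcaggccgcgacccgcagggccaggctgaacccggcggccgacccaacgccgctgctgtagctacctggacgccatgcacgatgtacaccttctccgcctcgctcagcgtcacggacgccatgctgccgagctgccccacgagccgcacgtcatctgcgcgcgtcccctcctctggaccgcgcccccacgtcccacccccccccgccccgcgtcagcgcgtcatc
LNPEP: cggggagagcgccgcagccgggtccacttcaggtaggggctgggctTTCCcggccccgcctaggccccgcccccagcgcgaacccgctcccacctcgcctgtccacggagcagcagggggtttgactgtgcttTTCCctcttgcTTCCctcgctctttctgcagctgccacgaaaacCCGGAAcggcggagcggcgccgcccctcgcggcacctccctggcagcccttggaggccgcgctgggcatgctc
MIB1: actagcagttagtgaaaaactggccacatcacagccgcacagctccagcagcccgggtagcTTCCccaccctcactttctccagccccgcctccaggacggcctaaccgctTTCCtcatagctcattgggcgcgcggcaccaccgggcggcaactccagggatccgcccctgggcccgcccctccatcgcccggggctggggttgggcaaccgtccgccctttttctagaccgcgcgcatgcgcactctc
EZH2: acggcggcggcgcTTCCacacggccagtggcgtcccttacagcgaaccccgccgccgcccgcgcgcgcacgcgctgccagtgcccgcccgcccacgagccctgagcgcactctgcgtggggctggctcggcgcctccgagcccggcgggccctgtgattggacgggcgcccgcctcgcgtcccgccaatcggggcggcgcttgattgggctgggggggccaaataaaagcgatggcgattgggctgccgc
GGAA, counted on both strands and with those inside CCGGAA, occurred 6 times before FCHSD2, 4 times before LNPEP, 2 times before MIB1 and 1 time before EZH2, and was absent from the ZDHHC3 window. The window before the second start held GGAA 2 times for EZH2 (79.6% GC) and 2 times for LNPEP (35.6% GC), and CCGGAA in neither. CCGGAA occurred once before FCHSD2 and once before LNPEP. Of 35116 RefSeq promoter windows of this length, 92.74% held GGAA and 14.53% held CCGGAA, so these matches describe the letters and mark no binding site. GC content was 74.0% for FCHSD2, 72.4% for ZDHHC3, 71.6% for LNPEP, 66.4% for MIB1 and 75.6% for EZH2, and the median over all windows was 58.0%. The RefSeq start used for MIB1 lies 35835 bases downstream of the GENCODE start, and that used for LNPEP 686 bases downstream.

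Libraries held 12577816 to 18927506 gene reads. ETV6 averaged 1969 ± 354, 1692 ± 372 and 85.1 ± 40.7 CPM (SD, n = 3 each) in knockout ETV6, R369W and EV cells, and 2440 ± 161, 2541 ± 425 and 96.3 ± 42.7 CPM in the unedited ETV6, R369W and EV cells. CPM is the read count scaled by TMM library size. These reads do not separate the vector from the cells' own transcript, and they did not tell knockout EV from unedited EV cells (log2 fold change -0.18, SE 0.34, adjusted p = 0.845, edgeR), so the knockout label was not checked by them. The share of unaligned reads was 0.279% to 0.349% in the 12 ETV6 and R369W libraries and 0.527% to 0.809% in the 6 EV libraries. It moves with every comparison of a vector with EV, and its part in them was not tested. Of 12 megakaryocyte markers, PF4 had no read in any group and PPBP none in 3 groups, and the summed level of the 12 was 963 to 2126 CPM per library. T lymphocyte markers summed to at most 0.379 CPM, and in each group at least 1 of CD3D, CD3E and CD3G had no read.

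FCHSD2 (ENSG00000137478, chromosome 11, 72836745 to 73142261, minus strand, 305.5 kb) is an F-BAR and SH3 protein that promotes actin assembly at clathrin-coated pits. Its level was 64.8, 60.3 and 60.4 CPM in knockout ETV6 cells, 106, 105 and 108 CPM in knockout R369W cells, and 287, 193 and 277 CPM in knockout EV cells. In unedited cells it was 43.3, 39.1 and 38.8 CPM with ETV6, 53.7, 57.8 and 51.3 CPM with R369W, and 48.3, 55.1 and 39.6 CPM with EV. All 3 knockout groups stood apart from each other, with EV highest and ETV6 lowest, whereas the unedited R369W and EV libraries overlapped and so did unedited ETV6 and EV. Knockout EV was also the group with the widest spread, since replicate 2 lay well below the other two. The log2 fold change over EV was -2.03 (SE 0.14) with ETV6 and -1.25 (SE 0.14) with R369W in knockout cells, against -0.24 (SE 0.14) with ETV6 and 0.19 (SE 0.14) with R369W in unedited cells. In bulk RNA, fewer cells with a transcript and less of it per cell cannot be told apart.

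ZDHHC3 (ENSG00000163812, chromosome 3, 44915257 to 44976185, minus strand, 60.9 kb) is a Golgi palmitoyltransferase, which attaches fatty acid chains to membrane proteins. It stood at 98.8, 94.3 and 81.8 CPM in knockout ETV6 cells, 139, 130 and 149 CPM in knockout R369W cells, and 263, 226 and 253 CPM in knockout EV cells. Unedited libraries gave 68.4, 66.0 and 58.4 CPM with ETV6, 73.1, 84.9 and 69.0 CPM with R369W, and 66.4, 70.1 and 56.0 CPM with EV. The order of the groups was that of FCHSD2 in knockout cells, again with no overlap among the 3 vectors, while in unedited cells both vector groups overlapped EV. The log2 fold change over EV was -1.43 (SE 0.11) with ETV6 and -0.83 (SE 0.11) with R369W in knockout cells, and 0.00 (SE 0.11) and 0.24 (SE 0.11) with the same vectors in unedited cells. The lowest knockout library, ETV6 replicate 4, lay within the range of the unedited R369W libraries.

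LNPEP (ENSG00000113441, chromosome 5, 96935394 to 97037515, plus strand, 102.1 kb) is the insulin-regulated aminopeptidase, a membrane enzyme that cleaves oxytocin and vasopressin and travels in the storage vesicles of the glucose carrier SLC2A4. Knockout cells had 99.5, 105 and 99.6 CPM with ETV6, 108, 92.4 and 100 CPM with R369W, and 142, 134 and 142 CPM with EV. Unedited cells had 80.8, 87.3 and 85.7 CPM with ETV6, 98.3, 92.2 and 101 CPM with R369W, and 112, 106 and 97.2 CPM with EV. The lowest knockout EV library, at 134 CPM, lay above the highest of the other 15, at 112 CPM. The log2 fold change over EV was -0.46 (SE 0.08) with ETV6 and -0.47 (SE 0.08) with R369W in knockout cells. In unedited cells it was -0.31 (SE 0.08) with ETV6, where the 3 libraries lay below all 3 EV libraries, and -0.11 (SE 0.08) with R369W, where they overlapped. LNPEP was thus the one gene of the 5 whose unedited ETV6 and EV libraries did not overlap; 4.69% of all genes tested lay lower without overlap in that comparison.

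MIB1 (ENSG00000101752, chromosome 18, 21704957 to 21870957, plus strand, 166.0 kb) is a ubiquitin ligase that marks Notch ligands for endocytosis, a step the signal-sending cell needs. Its values were 201, 285 and 212 CPM in knockout ETV6 cells, 290, 197 and 213 CPM in knockout R369W cells, and 422, 443 and 468 CPM in knockout EV cells. Values in unedited cells were 278, 280 and 260 CPM with ETV6, 278, 279 and 239 CPM with R369W, and 289, 292 and 252 CPM with EV. One library in each knockout vector group, ETV6 replicate 2 and R369W replicate 1, reached the unedited level, and the other 4 lay below every unedited library. Replicate 4 was the lowest library of each unedited group. MIB1 had a log2 fold change over EV of -0.94 (SE 0.14) with ETV6 and -0.93 (SE 0.14) with R369W in knockout cells, against -0.03 (SE 0.14) and -0.07 (SE 0.14) in unedited cells.

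EZH2 (ENSG00000106462, chromosome 7, 148807383 to 148884321, minus strand, 76.9 kb) is the catalytic subunit of Polycomb repressive complex PRC2, a histone methyltransferase that marks silenced genes. It was measured at 86.5, 87.3 and 95.6 CPM in knockout ETV6 cells, 132, 122 and 102 CPM in knockout R369W cells, and 233, 237 and 244 CPM in knockout EV cells. The unedited libraries held 90.1, 87.4 and 117 CPM with ETV6, 111, 94.9 and 111 CPM with R369W, and 103, 83.2 and 107 CPM with EV. The 3 knockout EV libraries lay close together and above the other 15, which held 83.2 to 132 CPM. EZH2 had a log2 fold change over EV of -1.41 (SE 0.13) with ETV6 and -1.01 (SE 0.13) with R369W in knockout cells, and 0.01 (SE 0.13) and 0.12 (SE 0.13) with those vectors in unedited cells.

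**Figure D1:**
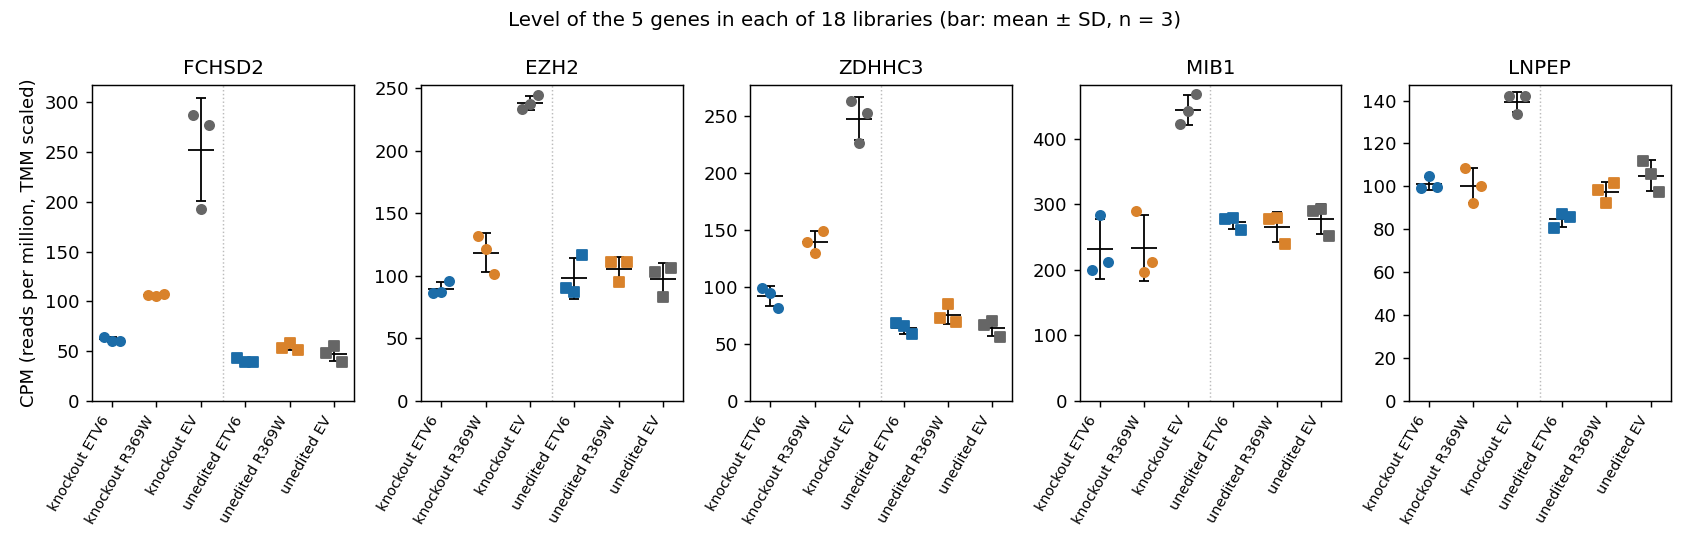
CPM of the 5 genes (y axis, from 0, reads scaled by TMM library size) in each library (points) of the 6 groups (x axis), with the mean ± SD of 3 libraries as a bar. Knockout EV is the highest group for each gene, and the steps between the 3 knockout groups are seen for FCHSD2 (means 61.8, 106 and 252 CPM with ETV6, R369W and EV).

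All 5 genes were lower with ETV6 than with EV in knockout cells, where 1.57% of all genes tested were called lower, and all 5 were lower with R369W, where 0.0489% were. Neither the ETV6 nor the R369W libraries overlapped knockout EV for any of the 5, and over all genes 11.7% and 9.75% lay lower without overlap with those vectors. In unedited cells 0.302% of all genes were called with ETV6 and 0.0245% with R369W. These comparisons chose the 5 genes and nothing is read from them. As a share of the knockout EV mean, the level with ETV6 was 24.5% for FCHSD2, 37.0% for ZDHHC3, 37.7% for EZH2, 52.3% for MIB1 and 72.7% for LNPEP, and that with R369W was 42.2%, 56.3%, 49.7%, 52.5% and 72.1% in the same order of genes. The change with a vector in knockout minus that in unedited cells was, on the log2 scale, -1.79 (SE 0.19) for FCHSD2, -1.44 (SE 0.16) for ZDHHC3, -1.42 (SE 0.18) for EZH2, -0.91 (SE 0.20) for MIB1 and -0.15 (SE 0.11) for LNPEP with ETV6. With R369W this difference was -1.43 (SE 0.19), -1.07 (SE 0.16), -1.12 (SE 0.18), -0.86 (SE 0.20) and -0.36 (SE 0.11) in the same order. These differences use the values that chose the genes and carry no test.

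**Figure D2:**
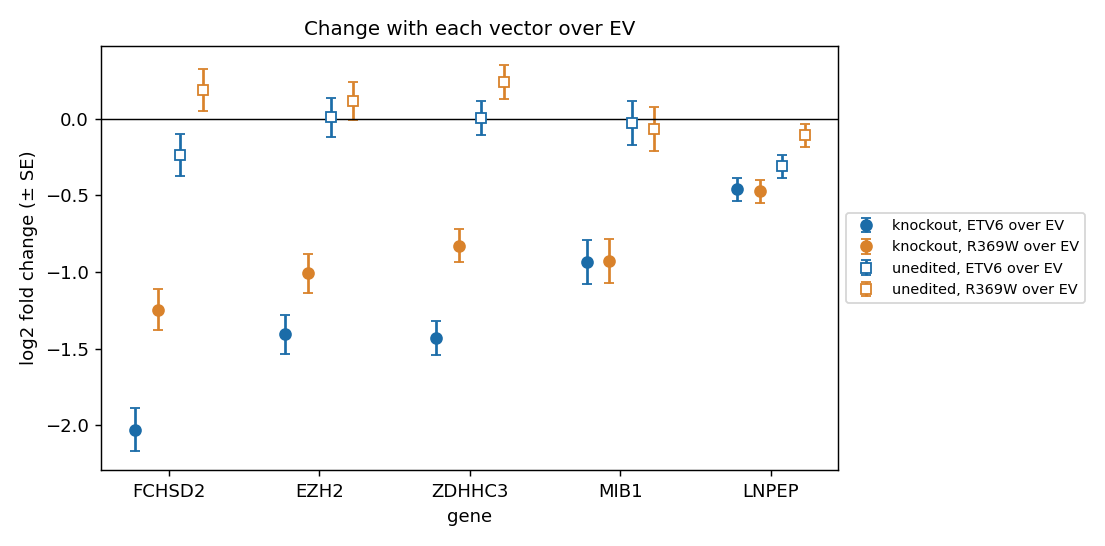
Log2 fold change over EV (y axis, ± SE, edgeR) of the 5 genes (x axis) for ETV6 (blue) and R369W (orange) in knockout cells (filled circles) and unedited cells (open squares). In knockout cells all 10 values lie below 0, from -2.03 to -0.46, and in unedited cells they run from -0.31 to 0.24.

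At the edge of the threshold, LNPEP and CD79A had the largest adjusted p of the genes inside it, 0.0271 with R369W, and CHD9, a chromatin remodeller, lay just outside at 0.0516. CHD9 had log2 fold changes of -0.47 with ETV6 and -0.47 with R369W, close to those of LNPEP. The next genes outside were E2F6, KNTC1, USP33 and CDC42SE2, with a larger adjusted p of 0.115 to 0.126. CD79A, a B cell receptor subunit that did not belong to the 5, had 5 to 8 reads per library in knockout ETV6 cells, 11 to 19 in knockout R369W cells and 123 to 297 in knockout EV cells. Its unedited libraries held 0 to 8 reads.

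R369W was set against ETV6 to ask whether the variant lowers the genes as far as ETV6 does, and the EV libraries do not enter this comparison. The libraries of both vectors, in knockout and in unedited cells, also chose the genes, so the p-values below are not independent of that choice. FCHSD2 was higher with R369W than with ETV6 in knockout cells, at 106 ± 1.20 CPM in R369W cells and 61.8 ± 2.56 CPM in ETV6 cells (SD, n = 3 each), a log2 fold change of 0.78 (SE 0.14, adjusted p = 0.00695, edgeR). ZDHHC3 was higher too, at 139 ± 9.81 CPM in R369W cells and 91.6 ± 8.80 CPM in ETV6 cells, a log2 fold change of 0.60 (SE 0.11, adjusted p = 0.00984, edgeR). These are 2 of the 5 genes, and 1.23% of all genes tested were called in either direction and 1.07% as higher. EZH2 averaged 118 ± 15.5 CPM in R369W cells and 89.8 ± 5.07 CPM in ETV6 cells, with no overlap (8.78% of all genes lay higher without overlap), but its log2 fold change of 0.40 did not pass (95% interval 0.13 to 0.67, adjusted p = 0.176, edgeR). MIB1 differed by 0.01 (95% interval -0.30 to 0.31) and LNPEP by -0.01 (95% interval -0.17 to 0.15), and their libraries overlapped. Without knockout ETV6 replicate 4 the adjusted p of ZDHHC3 was 0.0752, and without both knockout ETV6 replicate 1 and knockout R369W replicate 4 it was 0.0982 for ZDHHC3 and 0.0918 for FCHSD2.

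In unedited cells none of the 5 genes passed between R369W and ETV6 in edgeR, where 1.2% of all genes were called and 1.13% as higher. At an unadjusted p under 0.05 the count was 2 of the 5, beside 1102 of all 12262 genes. DESeq2 called 0 of the 5, beside 287 of all genes. The log2 fold change was 0.42 for FCHSD2 (SE 0.14, adjusted p = 0.221), 0.24 for ZDHHC3 (SE 0.11, adjusted p = 0.557) and 0.20 for LNPEP (SE 0.08, adjusted p = 0.366), and for each of them all 3 R369W libraries lay above all 3 ETV6 libraries. Across all genes, 7.32% lay higher without overlap in this comparison. Same-numbered unedited libraries deviated together, and 2 fits took the number as a block. In the fit over all 18 libraries none of the 5 passed (FCHSD2 adjusted p = 0.0923, ZDHHC3 0.220, LNPEP 0.247). In the fit without the 3 knockout R369W libraries, called the 15-library block here, FCHSD2 (adjusted p = 0.00516), ZDHHC3 (0.0292) and LNPEP (0.0440) passed, and the parts of the block and of the left-out libraries in this cannot be told apart. The 15-library block called 16.2% of all genes, 9.74% as higher, against which 3 of 5 is to be read. EZH2 differed by 0.11 (95% interval -0.16 to 0.38) and MIB1 by -0.04 (95% interval -0.34 to 0.27) without the block. The difference between R369W and ETV6 was not shown to differ between knockout and unedited cells. It was 0.36 (95% interval -0.05 to 0.77) larger in knockout cells for FCHSD2 and 0.37 (95% interval 0.04 to 0.70) for ZDHHC3. The unadjusted p was 0.0806 and 0.0321, and the adjusted p 0.9999 for each (edgeR). In that test 0 of the 12262 genes passed, with 124 at an unadjusted p under 0.05. The fit had no block on the replicate number, although same-numbered unedited libraries deviated together. It therefore does not show that such a difference is absent.

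Knockout cells were compared with unedited cells under each vector to ask how the genotype relates to the 5 genes. With EV, all 5 were higher in knockout cells, where 4.33% of all genes were called and 3.31% as higher. The EV libraries of both genotypes also chose the genes, so these p-values are not independent of that choice. The log2 fold change was 2.41 (SE 0.14, adjusted p = 1.78e-07) for FCHSD2, 1.95 (SE 0.11, adjusted p = 1.78e-07) for ZDHHC3, 1.29 (SE 0.13, adjusted p = 3.74e-05) for EZH2, 0.68 (SE 0.14, adjusted p = 0.0129) for MIB1 and 0.41 (SE 0.08, adjusted p = 0.00504) for LNPEP, all by edgeR. FCHSD2 averaged 252 ± 51.8 CPM in knockout EV cells and 47.7 ± 7.79 CPM in unedited EV cells (SD, n = 3 each), 5.30-fold higher, and for each of the 5 genes all 3 knockout EV libraries lay above all 3 unedited EV libraries, as for 12.6% of all genes. MIB1 no longer passed without knockout EV replicate 4 (adjusted p = 0.0607) or without unedited EV replicate 4 (adjusted p = 0.0626). The summed level of 12 erythroid markers was 402 to 1558 CPM in the 9 knockout libraries and 1601 to 3428 CPM in the 9 unedited libraries, with none of the 12 at 0 in any group, and its part in these differences was not tested.

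The ETV6 and R369W libraries of both genotypes also chose the genes, so the p-values in this paragraph are not independent of that choice. With R369W, FCHSD2 (0.97, SE 0.14, adjusted p = 0.00130) and ZDHHC3 (0.88, SE 0.11, adjusted p = 0.000621) were higher in knockout than in unedited cells (edgeR), where 4.18% of all genes were called and 2.59% as higher. With ETV6 the same pair was higher by 0.61 (SE 0.14, adjusted p = 0.0295) and 0.51 (SE 0.11, adjusted p = 0.0254), where 2.53% were called and 1.82% as higher. FCHSD2 then averaged 61.8 ± 2.56 CPM in knockout and 40.4 ± 2.47 CPM in unedited ETV6 cells, 1.53-fold higher, and ZDHHC3 91.6 ± 8.80 CPM in knockout and 64.3 ± 5.20 CPM in unedited ETV6 cells, 1.43-fold higher. Both calls depended on single libraries: FCHSD2 missed the threshold without any one of the unedited ETV6 libraries, knockout ETV6 replicate 1 or replicate 4 (adjusted p 0.0642 to 0.111), and ZDHHC3 without any one of the unedited ETV6 libraries, knockout ETV6 replicate 1 or replicate 2 (0.0560 to 0.114). EZH2 and MIB1 did not pass under either vector, at -0.13 (95% interval -0.40 to 0.14) and -0.23 (95% interval -0.54 to 0.07) with ETV6 and 0.17 (95% interval -0.10 to 0.43) and -0.19 (95% interval -0.49 to 0.12) with R369W. LNPEP was 0.26 higher with ETV6 (SE 0.08, adjusted p = 0.0862 by edgeR and 0.0185 by DESeq2) and 0.05 with R369W (95% interval -0.12 to 0.21).

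**Figure D3:**
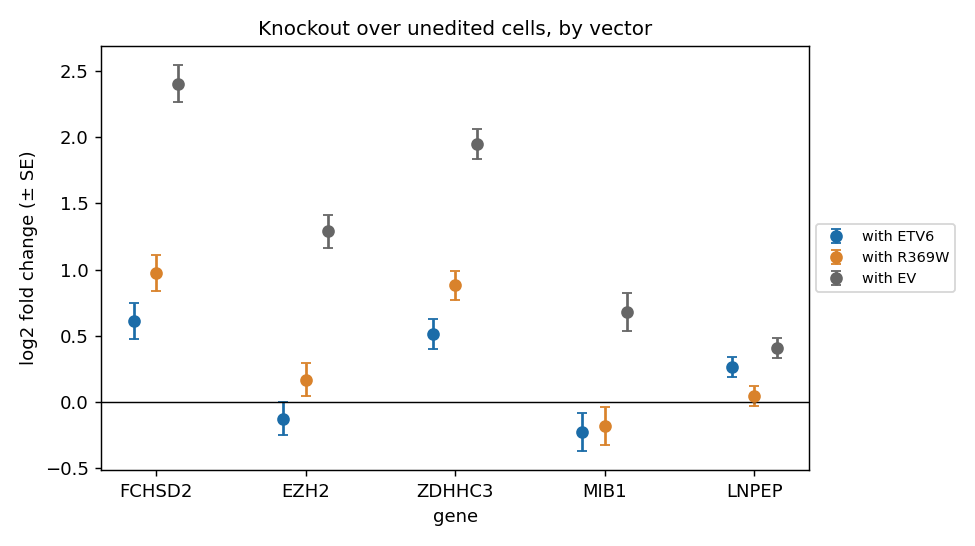
Log2 fold change of knockout over unedited cells (y axis, ± SE, edgeR) for the 5 genes (x axis) with ETV6 (blue), R369W (orange) and EV (grey). With EV all 5 values lie above 0, from 0.41 to 2.41, and with ETV6 or R369W the values for EZH2 and MIB1 lie between -0.23 and 0.17.

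The pattern over the 18 libraries was compared between genes as the root mean square (RMS) difference of log2 CPM after centring each gene, where 0 means the same pattern. This is a description only. Every gene is read from the same 18 libraries, so what sets a library apart can enter every gene. The 5 genes were chosen by values in these same libraries, so closeness among them is partly built in by that choice. Of the 12261 other genes, ZDHHC3 was the closest to FCHSD2, at 0.23, and FCHSD2 was the second closest to ZDHHC3. The next genes were FUCA1, a lysosomal fucosidase (0.37 from FCHSD2 and 0.21 from ZDHHC3), COLQ and LPCAT2 for FCHSD2, and TMEM233 and BMP8B for ZDHHC3. EZH2 was closest to CDC42SE2, GALC and EXOSC7 (0.29 to 0.31), with MIB1 at rank 5 and LNPEP at rank 12. MIB1 was closest to RAP2C, KNTC1 and CHD9 (0.18 to 0.21), with LNPEP at rank 13, and LNPEP to COX11, CD164 and CHD9 (0.12 to 0.13). FCHSD2 ranked 10398 for MIB1 and 10618 for LNPEP, whereas MIB1 ranked 393 and LNPEP 330 for FCHSD2. The measure is not scaled by the size of each gene's own changes, so these ranks also reflect that size. The RMS about the gene's own mean was 0.90 for FCHSD2, 0.35 for MIB1 and 0.22 for LNPEP. FUCA1, named for its likeness over these same libraries and so with no test, had log2 fold changes over EV in knockout cells of -1.01 (SE 0.15) with ETV6 and -0.44 (SE 0.14) with R369W. Its log2 fold change between knockout EV and unedited EV cells was 1.53 (SE 0.15).

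The nearest relatives of the 5 genes were then read in the same fit. FCHSD1, the paralogue of FCHSD2, differed by 0.06 (SE 0.17) with ETV6 and 0.05 (SE 0.17) with R369W over EV in knockout cells. ZDHHC7, the closest relative of ZDHHC3, differed by 0.11 (SE 0.08) and 0.07 (SE 0.08), and EZH1, the other PRC2 methyltransferase, by 0.12 (SE 0.21) and 0.01 (SE 0.21). MIB2 differed by -0.03 (SE 0.29) and 0.54 (SE 0.29). ERAP1 and ERAP2, the aminopeptidases next to LNPEP on chromosome 5, differed by -0.17 (SE 0.13) and -0.57 (SE 0.44) with ETV6 and by -0.22 (SE 0.13) and -0.10 (SE 0.43) with R369W. In none of these 6 genes did a test of the 3 comparisons of knockout ETV6 with knockout EV, knockout R369W with knockout EV or knockout EV with unedited EV pass in edgeR. EZH1 was 0.50 lower (SE 0.21, adjusted p = 0.221) in knockout EV than in unedited EV cells, the direction opposite to EZH2.

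Lists of the complexes and pathways around the 5 genes were then counted, without the 5 genes themselves. Of 13 other PRC2 subunits and cofactors, 19 PRC1 subunits, 20 other DHHC palmitoyltransferases and 20 clathrin endocytosis partners of FCHSD2, none passed in edgeR between knockout ETV6 and knockout EV, against 1.83% of all genes. At an unadjusted p under 0.05 the counts were 1, 3, 2 and 2, beside 1522 of all 12262 genes. DESeq2 called 0 in each list, beside 401 of all genes. The median log2 fold changes of these lists were 0.02, -0.01, -0.0016 and 0.02, and that of all genes was -0.0018. With the 15-library block, which called 27.6% of all genes (12.3% higher and 15.3% lower), 3 PRC2 genes were higher and 1 lower, 3 PRC1 genes higher and 4 lower, 2 DHHC genes higher and 2 lower, and 1 clathrin gene higher and 4 lower. The 16 other F-BAR proteins had 0 calls in edgeR, 0 at an unadjusted p under 0.05 and 0 in DESeq2, and 2 higher and 2 lower with the block. Between knockout R369W and knockout EV no gene of the 8 lists passed in edgeR, where 0.0571% of all genes did. At an unadjusted p under 0.05 the counts ran from 0 to 4 per list, beside 1695 of all 12262 genes. DESeq2 called 1 gene of the lists, ZDHHC21, beside 195 of all genes.

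Among 33 other Notch genes, 1 fell with ETV6 in knockout cells, where 1.57% of all genes fell. That gene was ADAM10, the protease that cleaves Notch receptors after ligand binding. It stood at 97.9 ± 6.48 CPM in knockout ETV6 cells and 130 ± 11.9 CPM in knockout EV cells (log2 fold change -0.41, SE 0.08, adjusted p = 0.0174, edgeR). That call was lost without knockout EV replicate 4 (adjusted p = 0.109), knockout ETV6 replicate 1 (0.0913) or knockout ETV6 replicate 2 (0.0927). With the 15-library block, 5 Notch genes were higher and 4 lower in the same comparison, where 12.3% of all genes were higher and 15.3% lower. Between knockout EV and unedited EV cells ADAM10 rose by 0.50 (SE 0.08, adjusted p = 0.00244) and NEURL1B, another ubiquitin ligase of Notch ligands, by 3.21 (SE 0.59, adjusted p = 0.00490). The Notch target genes HEY1 (-3.18, SE 0.70, adjusted p = 0.0170) and HES1 (-0.78, SE 0.21, adjusted p = 0.0493) fell there, so 2 Notch genes rose and 2 fell, against 3.31% and 1.02% of all genes. HEY1 rested on 5 reads in 3 knockout EV libraries and 46 in 3 unedited EV libraries, and both falls were lost without single libraries (adjusted p up to 0.0839 for HEY1 and 0.222 for HES1). Of the other Notch genes, NEURL1B (3.31) and MAML1 (0.42) rose and HEY1 (-3.12) fell between knockout and unedited ETV6 cells, where 1.82% of all genes rose and 0.71% fell. All 3 calls were lost without single libraries (adjusted p up to 0.0553 for NEURL1B, 0.0934 for MAML1 and 0.109 for HEY1, which had 8 reads in knockout and 71 in unedited ETV6 cells). NEURL1B (3.48), JAG2 (1.61), NRARP (1.14) and MAML1 (0.31) rose and HES1 (-0.79) fell between knockout and unedited R369W cells, where 2.59% of all genes rose and 1.59% fell. Of these 5 genes NEURL1B passed there without each single library, and the other 4 did not (adjusted p up to 0.0728 for JAG2, 0.0609 for NRARP, 0.182 for MAML1 and 0.182 for HES1).

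Of 8 other M1 family aminopeptidases, the relatives of LNPEP, RNPEP alone was called. It fell with ETV6 in knockout cells, as did 1.57% of all genes (-1.34, SE 0.13, adjusted p = 4.39e-05, edgeR), at 37.0 ± 2.75 CPM in knockout ETV6 cells and 94.0 ± 3.92 CPM in knockout EV cells. RNPEP stood at 102 ± 6.06 CPM in knockout R369W cells, 1.46 above knockout ETV6 cells on the log2 scale (SE 0.13, adjusted p = 4.38e-05). RNPEP was also higher with R369W than with ETV6 in unedited cells (1.48, SE 0.14, adjusted p = 3.99e-05), and fell with ETV6 against EV there, as did 0.285% of all genes (-0.81, SE 0.13, adjusted p = 0.0130), a call lost without unedited EV replicate 2 or 3 or unedited ETV6 replicate 2 (adjusted p up to 0.114). It was 0.64 higher in knockout EV than in unedited EV cells (SE 0.13, adjusted p = 0.0111; 0.0509 without unedited EV replicate 2). With the 15-library block, 2 of the 8 were higher and 2 lower in knockout ETV6 against knockout EV cells, where 12.3% of all genes were higher and 15.3% lower. Of 11 genes of the storage vesicles that carry LNPEP, none passed with ETV6 in knockout cells in edgeR (1 at an unadjusted p under 0.05, and 1 in DESeq2, SORT1), and 2 were lower with the block. Over all genes, 1522 had an unadjusted p under 0.05 there and DESeq2 called 401. SORT1, the sorting receptor sortilin, rose by 0.83 (SE 0.18, adjusted p = 0.0151) between knockout EV and unedited EV cells, a call lost without knockout EV replicate 1 or 4 or unedited EV replicate 2 (adjusted p up to 0.0806).

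Between knockout EV and unedited EV cells, where all 5 genes and 4.33% of all genes (3.31% as higher) were called, 0 of 13 PRC2, 0 of 19 PRC1, 0 of 20 DHHC and 0 of 20 clathrin genes were called in edgeR (3, 0, 0 and 2 at an unadjusted p under 0.05; 1, 0, 0 and 0 in DESeq2, the 1 being JARID2). Over all 12262 genes, 2173 had an unadjusted p under 0.05 there and DESeq2 called 893. Of 16 F-BAR proteins, SRGAP3 (3.46, SE 0.81, adjusted p = 0.0246) and FNBP1 (1.16, SE 0.30, adjusted p = 0.0386) rose; SRGAP3 had 61 reads in 3 knockout EV libraries and 5 in 3 unedited EV libraries, and both calls were lost without most single libraries (adjusted p up to 0.121 for SRGAP3 and 0.179 for FNBP1). In the remaining comparisons, PCGF2 of PRC1 rose with R369W over ETV6 in unedited cells (0.80, adjusted p = 0.00873; up to 0.0628 without 1 library), PHF1 of PRC2 fell between knockout and unedited R369W cells (-0.37, adjusted p = 0.0481; up to 0.173), and FES of the F-BAR proteins rose there (0.65, adjusted p = 0.0497; up to 0.242).

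**Figure D4:**
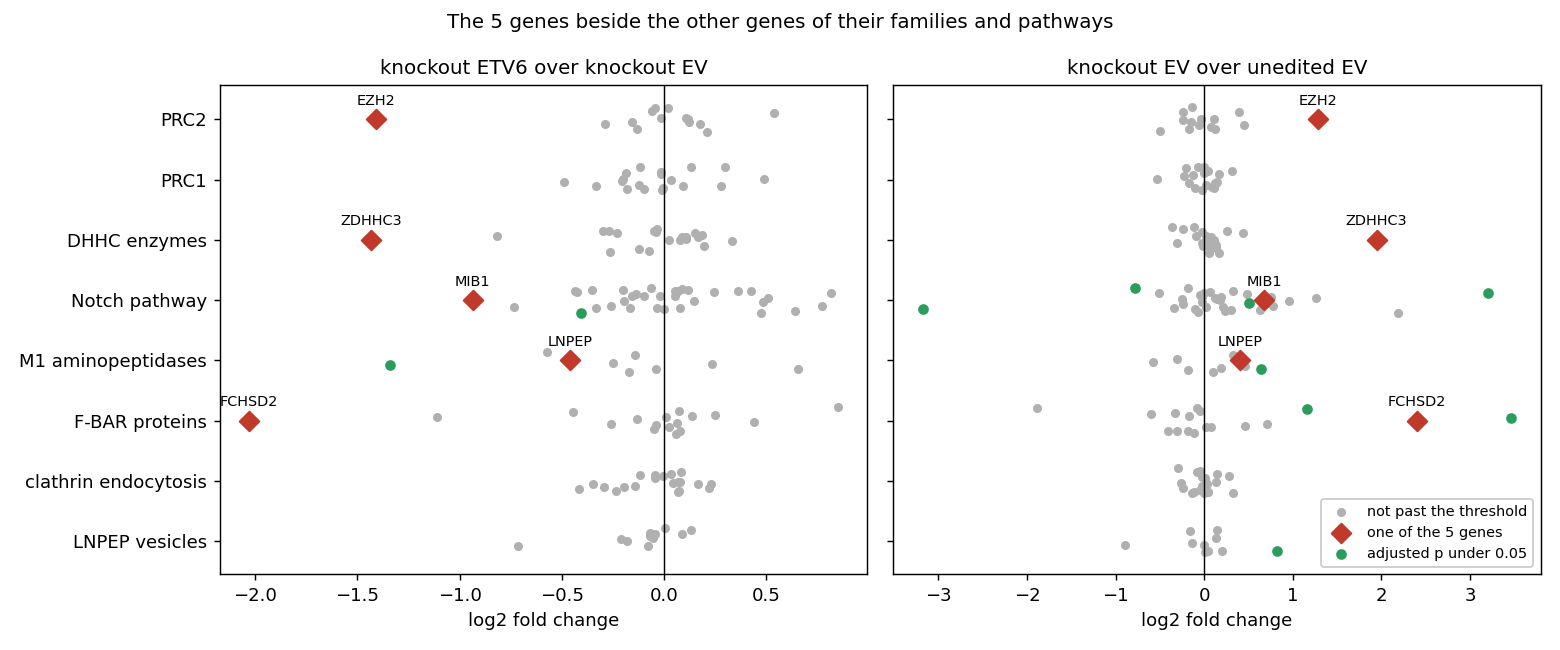
Log2 fold change (x axis, edgeR) of knockout ETV6 over knockout EV (left) and knockout EV over unedited EV (right) for the genes of 8 lists (rows); each point is a gene, green where its adjusted p is under 0.05, and red diamonds are the 5 genes. Libraries of both panels chose the 5 genes, so where the 5 lie is partly set by that choice. On the left FCHSD2 (-2.03), EZH2 (-1.41), ZDHHC3 (-1.43) and MIB1 (-0.94) lie outside the range of the other genes of their lists. LNPEP (-0.46) lies within its own. On the right EZH2 (1.29) and ZDHHC3 (1.95) lie outside that range, and FCHSD2 (2.41), MIB1 (0.68) and LNPEP (0.41) within it.

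The genes around each of the 5 were counted against the 4.33% of all genes called between knockout EV and unedited EV cells and the 1.83% called between knockout ETV6 and knockout EV cells. Within 500 kb of the start of FCHSD2, 1 of 8 other tested genes was called between knockout EV and unedited EV cells: ARHGEF17, with 289 reads in 3 knockout EV libraries and 45 in 3 unedited EV libraries (2.61, SE 0.51, adjusted p = 0.00737, edgeR; 0.0509 without unedited EV replicate 2). Between knockout ETV6 and knockout EV cells the log2 fold change of ARHGEF17 was 0.26 (SE 0.46), and it was not called. Around ZDHHC3, 1 of 9 was called, EXOSC7, an exosome subunit transcribed the other way from a start 0.944 kb away. EXOSC7 rose by 0.71 (SE 0.10, adjusted p = 0.000562) between knockout EV and unedited EV cells and fell by 0.63 (SE 0.10, adjusted p = 0.00214) with ETV6 against EV in knockout cells, both calls holding without each single library. ZNF197, 391 kb from ZDHHC3, fell by 0.47 (SE 0.10, adjusted p = 0.0166; up to 0.0883 without 1 library) with ETV6 against EV in knockout cells; between knockout EV and unedited EV it differed by 0.09 (SE 0.09).

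The RefSeq start of MIB1 whose window is shown lies 35835 bases downstream of its GENCODE start. Upstream of that GENCODE start, the lipase-family gene ABHD3 starts 0.152 kb away. It differed by 1.13 (SE 0.36) between knockout EV and unedited EV cells, adjusted p = 0.0958 by edgeR, 0.0207 with the block over all 18 libraries and 0.0299 by DESeq2, and by -1.13 (SE 0.36) between knockout ETV6 and knockout EV cells, adjusted p = 0.163, or 0.0357 with the replicate number as a block over all 18 libraries and 9.13e-08 with the 15-library block. GREB1L, 463 kb away, was called between knockout EV and unedited EV cells (1 of 4 genes around MIB1). It had 436 reads in knockout EV cells, 21 to 225 per library, and 1 in unedited EV cells. The ratio was 410, with an exact 95% counting interval of 73.2 to 16230 that leaves out the spread between libraries. The call of GREB1L was lost without any one of the unedited EV libraries (adjusted p 0.0564 to 0.0637, edgeR). Around EZH2 0 of 8 and around LNPEP 0 of 4 other genes were called in edgeR between knockout EV and unedited EV cells (1 and 2 at an unadjusted p under 0.05; 0 and 1 in DESeq2). Over all genes, 2173 had an unadjusted p under 0.05 there and DESeq2 called 893. With the 15-library block, 1 of 8 genes around FCHSD2, 0 of 8 around EZH2, 4 of 9 around ZDHHC3, 3 of 4 around MIB1 and 1 of 4 around LNPEP were lower in knockout ETV6 than in knockout EV cells, where 15.3% of all genes were.

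The gene around FCHSD2 in that count was ATG16L2, an autophagy gene on the opposite strand whose exons share 680 bases with those of FCHSD2. Since the strand setting of the counting is not given, it is not known how reads there were assigned. They may have been given to a gene by strand or set aside as ambiguous, as 0.765% to 3.30% of listed reads per library were. ATG16L2 held 6225 reads over the 18 libraries in all. LNPEP shares 416 exonic bases with an antisense transcript that has no row of its own in the table. ZDHHC3 and EXOSC7 overlap as genes but share no exonic base.

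**Figure D5:**
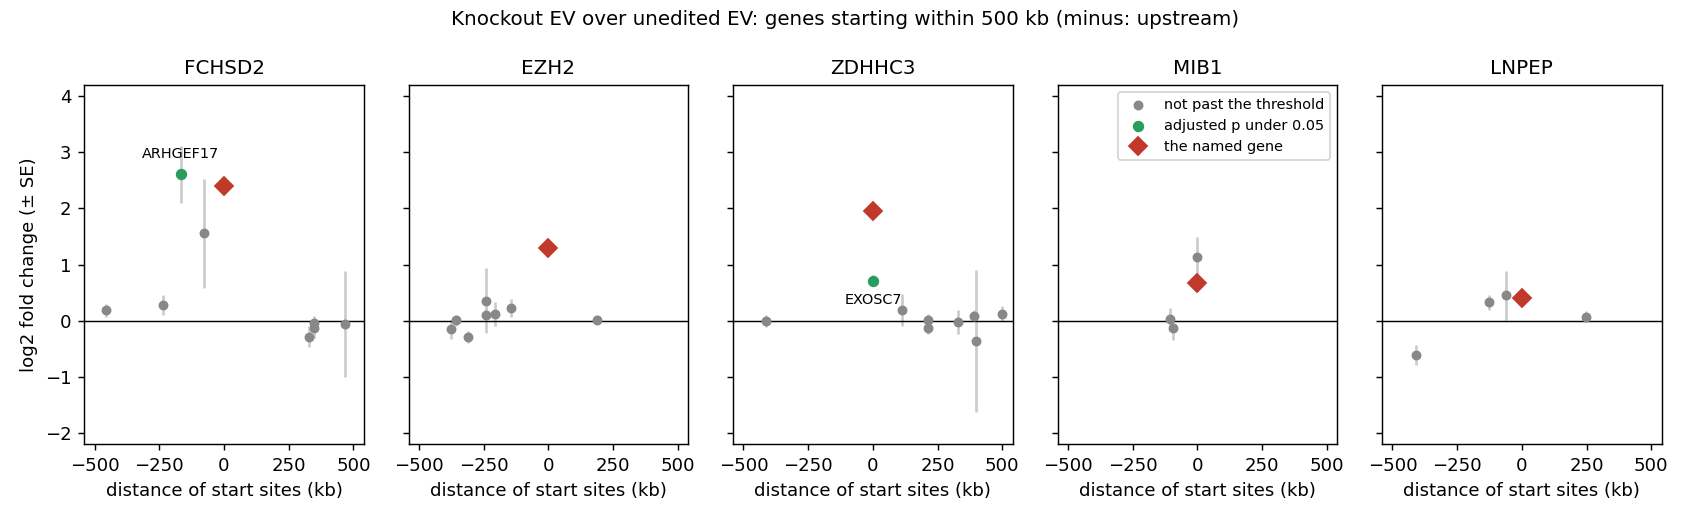
Log2 fold change of knockout EV over unedited EV (y axis, ± SE, edgeR) of genes starting within 500 kb of each of the 5 genes (panels), by distance between start sites in kb (x axis, minus for upstream). Red diamonds are the 5 genes and green points passed the threshold; ARHGEF17 (2.61) and EXOSC7 (0.71) are named, and GREB1L, with 1 read in unedited EV cells, is not drawn.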

How the data were processed

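Messenger RNA of MEG-01 cells was sequenced in 18 Illumina TruSeq stranded mRNA libraries, per the labels. The authors deposited raw counts per gene, which are whole numbers. Per the submitters' processing notes, HISAT2, SAMtools and HTSeq were used with the GRCh38 build; versions, annotation and strand setting were not given in the sources used here. Between 34.4% and 41.6% of listed reads were given to no gene and stayed out of library sizes. Of 20833 gene IDs, 20801 took a symbol from a gene name table and 31 from GENCODE release 29, which gave gene positions; promoters are from RefSeq.

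Counts were fitted with edgeR 4.0.16 in R 4.3.3: filterByExpr on the group, TMM scaling, and 1 quasi-likelihood model with 1 mean per group over 18 libraries. Tests were two-sided, with Benjamini-Hochberg adjustment over 12262 genes and a threshold of 0.05. SEs were derived from each log2 fold change and its F statistic. The fitting script was tested on simulated data. With 3 libraries on each side, the smallest p of an exact permutation test is 0.1, so none was used. p-values measure the spread between these libraries, and intervals of read ratios cover counting error only.

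The 5 genes and the 8 lists were chosen with earlier results of these data known. By rule the text names the 5 genes and ETV6, the genes at the edge of the threshold, up to 4 genes per list called between a knockout vector group and knockout EV, list genes called in other comparisons where 3 or fewer were, and the 3 genes most like each of the 5. The Notch genes called between knockout EV and unedited EV cells (4) and between knockout and unedited R369W cells (5) exceeded that limit and were named after their values were seen. The near relatives and the genes with starts within 500 kb were picked by family and position; of these, and of single counts in other tools (JARID2, SORT1, ZDHHC21), the ones named were chosen after their values were seen.

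To see whether replicate numbers pair the libraries, their deviations from the group means were correlated over genes. Same-numbered libraries correlated at 0.695 to 0.856 across the unedited groups and at 0.763 to 0.847 between knockout EV and knockout ETV6, and at -0.581 to -0.153 between knockout R369W and the other knockout groups, whose differently numbered libraries reached 0.828 (with ETV6) and 0.872 (with EV). The numbers of knockout R369W therefore do not pair it with the others. Its replicate 4 correlated at 0.756 and 0.739 with replicate 1 of knockout EV and knockout ETV6. Its replicate 1 correlated at 0.872 and 0.828 with their replicate 2, and its replicate 2 at 0.787 and 0.743 with their replicate 4. The block over all 18 libraries thus grouped knockout R369W libraries with others they did not follow, which limits it. No fit with these matches was run. A blocked fit on replicate number, without the 3 knockout R369W libraries, was chosen after seeing the data. Other alternatives were DESeq2 1.42.0, its size factors in edgeR, no filter, the block over all libraries, and leaving out each library. The numbers at the ends of 2 library names in the labels (knockout ETV6 replicate 1 and knockout R369W replicate 4) fall out of their groups' order; on genes that separate R369W from ETV6 in unedited cells both libraries sat with their own vector, and results without both are given. A second deposited file, a list of the libraries, was not used.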

Additional observations from a re-analysis of the deposited data

How the results depend on the processing

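Values of the 5 genes in the alternatives were sorted by 2 rules. In the comparisons of a vector with EV, a value was kept if it moved by less than the SD between libraries. The side of the threshold and sign changes of uncalled values were not counted there. EZH2 with ETV6 against EV in unedited cells ran from -0.14 to 0.0863 without 1 library. In the other comparisons a value was kept if it held direction and side of the threshold. Of all values 464 were kept, 17 lost the threshold, 4 gained it and 10 changed sign, none of them for a called value. For the other named genes, sorted by the last rule throughout, these numbers were 512, 128, 18 and 0. DESeq2 called 401 genes between knockout ETV6 and knockout EV (224 in edgeR), 195 between knockout R369W and knockout EV (7), 91 between unedited ETV6 and unedited EV (37), 13 between unedited R369W and unedited EV (3), 362 between knockout R369W and knockout ETV6 (151), 287 between unedited R369W and unedited ETV6 (147), 893 between knockout EV and unedited EV (531), 741 between knockout and unedited ETV6 (310) and 1010 between knockout and unedited R369W (513). With the replicate block over all libraries, which grouped knockout R369W libraries with others they did not follow, the counts were 748, 266, 80, 8, 486, 356, 979, 1002 and 1591 in the same order. With the block and without the 3 knockout R369W libraries, they were 3347 between knockout ETV6 and knockout EV, 943 and 263 for ETV6 and R369W against EV in unedited cells, and 1961 between unedited R369W and unedited ETV6, where 3 of the 5 genes passed against 0 without the block and 0 with the block over all libraries. Outside the comparisons of a vector with EV, neither block changed another call among the 5 genes in the comparisons it covered. Without knockout ETV6 replicate 1 and knockout R369W replicate 4 together, 132 genes were called between knockout ETV6 and knockout EV, 3 between knockout R369W and knockout EV, 57 between knockout R369W and knockout ETV6, 97 between knockout and unedited ETV6 and 231 between knockout and unedited R369W, and 0 of the 5 genes passed between knockout R369W and knockout ETV6 or between knockout and unedited ETV6. Genes lower with both vectors in knockout cells numbered 6, all 5 among them, against 38 with DESeq2 and 57 with the block, all 5 among them in both, 5 with no filter, 4 of the 5 among them, and 2 in the fit without those 2 libraries, both of the 5.

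Leaving out 1 library at a time gave 132 to 161 genes between knockout ETV6 and knockout EV, 3 to 11 between knockout R369W and knockout EV, 11 to 41 and 2 to 6 for ETV6 and R369W against EV in unedited cells, 89 to 130 between knockout R369W and knockout ETV6, 90 to 131 between unedited R369W and unedited ETV6, 246 to 577 between knockout EV and unedited EV, 116 to 310 between knockout and unedited ETV6 and 138 to 880 between knockout and unedited R369W. Genes lower with both vectors then numbered 2 to 7, with 2 to 5 of the 5 among them; they were 2 without knockout EV replicate 1 or knockout R369W replicate 2, and 3 without knockout EV replicate 2 or 4 or knockout R369W replicate 4. Of the 5 genes, 1 to 2 passed between knockout R369W and knockout ETV6, 0 to 1 between knockout and unedited ETV6 and 4 to 5 between knockout EV and unedited EV. Values near 0 changed sign: MIB1 between knockout R369W and knockout ETV6 was -0.00181 with no filter, -0.0254 without the 2 libraries together, and ran from -0.18 to 0.18 without 1 library. LNPEP in that comparison ran from -0.0711 to 0.0441, MIB1 between unedited R369W and unedited ETV6 from -0.0757 to 0.0315, EZH2 between knockout and unedited ETV6 from -0.21 to 0.0160, and LNPEP between knockout and unedited R369W from -0.0135 to 0.10. The cause of these changes was not tested, beyond fewer libraries where some were left out.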
